A study of Rattus norvegicus with 2 samples.

Results

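The genes described here are those of the contractile apparatus: myosin heavy and light chains, unconventional myosins, troponins, tropomyosins, muscle actins, alpha-actinins, calsequestrins and myosin binding proteins C. They were taken by name, as every gene whose symbol on the array begins with Myh, Myl, Tnn, Tpm, Acta, Actc, Actn, Casq, Mybpc or Myo followed by a digit, leaving out Tnnt1. This gave 76 genes of the 26269 names in the files, measured by 96 of 30367 probes. The names were those of the array design, so the rule also took in Tpmt, a thiopurine methyltransferase, Tnn, the matrix protein tenascin N, Mylip, a ubiquitin ligase, and Tnni3k, a kinase that binds troponin I. It missed Myl12a and Myo15b, which the files hold under older locus names.

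The RNA came from the paraventricular nucleus, which lies in the hypothalamus and governs pituitary hormones and sympathetic nerves, of male Sprague Dawley rats aged 12 weeks. For the control array the mothers had been given vehicle. For the dexamethasone array they had been given dexamethasone, a synthetic glucocorticoid, at 200 µg/kg in the third trimester. With 1 array per group no test of the treatment was possible. The sources used here do not say if an array stands for 1 animal or several. The title of the series names hypertension programmed before birth. The comparison bears on how transcript levels in the nucleus differed after that exposure.

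In striated muscle, myosin heavy chains pull on actin filaments, light chains support the myosin neck, and troponin on tropomyosin lets calcium switch the filament on. Calsequestrin holds the calcium store of the sarcoplasmic reticulum. In brain most contractile protein is of the non-muscle kind: Myh9, Myh10 and Myh14 work with cytoplasmic actin, unconventional myosins such as Myo5a and Myo6 carry cargo in neurons, and Acta2 and Myh11 mark the smooth muscle of vessel walls.

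Differences are given as dexamethasone minus control, in log2 of the signal scaled to the 75th percentile of each array, and signals are processed intensities before scaling. A probe was taken as measured when it was well above background on both arrays, which held for 84 of the 96 probes, covering 67 of the 76 genes. An error was computed only from the spread between spots, where a probe was spotted repeatedly. Over 1304 repeated probes the between-spot SD of the difference had a median of 0.04 (log2). A difference of 2-fold or more was counted as higher or lower, which is a rule of size and not a test.

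Of the 84 measured contractile probes, 6 were higher by 2-fold or more after dexamethasone (7.14%, against 2.67% of the 23321 probes measured on both arrays). Another 3 were at least 2-fold lower (3.57%, against 3.18%), and 75 lay within 2-fold. In either direction this made 9 probes of 84, against 5.84% of all measured probes. The higher probes were for Myh2, Mybpc2, Mylk3, Actn3, Myh8 and Tnnc2, and the lower ones for Casq2, Myo19 and Myo7a. Each of these 9 probes was 1 spot on each array. The median difference of the contractile probes was 0.06, against 0.02 for all measured probes. Dim probes differ more between arrays, and 4 of the 6 higher probes had signals of 136 or less on both arrays. With normexp, another way of removing background, Tnnc2 was the 1 probe higher, against 1.48% of all probes, and Casq2 the 1 lower, against 1.21%. With no background correction they were again the only contractile probes past 2-fold, against 1.45% of all probes higher and 1.22% lower. At 1.5-fold 16 contractile probes were higher, against 6.23%, and 6 lower, against 8.55%.

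**Figure D1:**
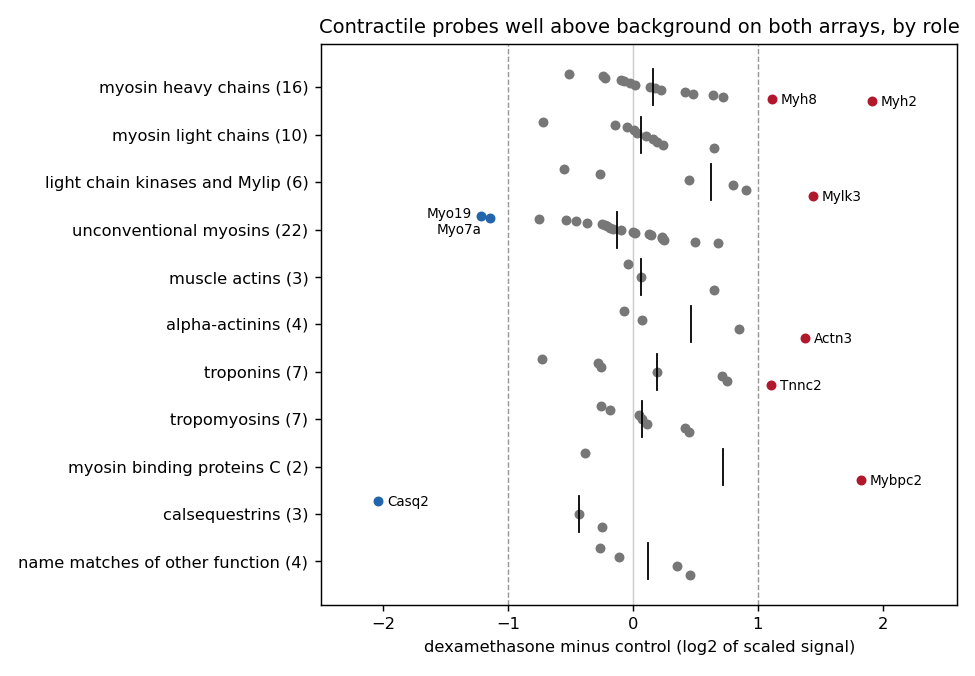
Difference between the arrays (dexamethasone minus control, log2) for each contractile probe well above background on both, by role, with the number of probes in parentheses, the median as a black bar and 2-fold as dashed lines. Each point is 1 probe on 1 array per group. Points past 2-fold are named: 6 lie to the right and 3 to the left, with Casq2 farthest left at -2.04.

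The probe sequences of Casq2 and fast troponin C (Tnnc2), past 2-fold under all 7 other ways of scaling and correcting the arrays, of slow troponin C (Tnnc1) and of Myh2 and Myh8 follow as the files give them, 5′ to 3′. Those of Myh2 and Myh8 are shown as the heavy chains past 2-fold. The troponin C probes are shown as a pair because they cover matching stretches of closely related genes. Capitals mark the 11 bases at which they differ over the 59 bases that align. The Casq2 probe is given by its first 30 of 60 bases, and the others whole. Positions are those of the rn4 assembly in the files.
Tnnc1, chr16:6642153-6642212, plus strand: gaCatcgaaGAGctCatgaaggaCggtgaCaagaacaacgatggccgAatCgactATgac
Tnnc2, chr3:155807460-155807519, minus strand: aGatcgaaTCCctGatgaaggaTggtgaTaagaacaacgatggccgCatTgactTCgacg
Myh2, chr10:53887030-53887089, plus strand: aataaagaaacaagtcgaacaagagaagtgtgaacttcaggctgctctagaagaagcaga
Myh2, chr10:53889275-53889334, plus strand: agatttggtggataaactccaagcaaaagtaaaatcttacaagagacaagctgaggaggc
Myh8, chr10:54002239-54002298, plus strand: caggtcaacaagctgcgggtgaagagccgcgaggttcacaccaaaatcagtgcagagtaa
Casq2, chr2:197239141-197239200, plus strand: gggcagtccttttatggaacagcaataaac

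The troponin C probes matched at 48 of 59 aligned bases, with a longest shared run of 17. Over all 4560 pairs of contractile probes the median was 20 matching bases, and 3 pairs shared a run of 15 or more. The other such pairs were Myh6 with Myh13 and the overlapping probes of Myl6 and Myl6l, which share 49 bases and carry the same current gene name. How far a probe pairs with the transcript of a related gene was not tested, so the split between close family members is uncertain.

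Calsequestrin 2, the calcium store protein of cardiac and slow muscle, had the largest difference of any measured contractile probe. Its signal was 2792 on the control array and 715 on the dexamethasone array, 4.11-fold lower (log2 difference -2.04). The Casq2 probe was 1 spot on each array. Repeated probes of similar signal had a between-spot SD of 0.04 (208 probes), far less than the difference. That SD holds no spread between animals, which is unknown. Over all measured probes the difference between the arrays had an SD of 0.53. Casq2 was the only contractile probe past 4-fold in either direction, where 0.407% of all measured probes were at least 4-fold lower. Over 7 other ways of scaling and correcting the arrays its difference ran from -2.06 to -1.95. Casq1, the calsequestrin of fast skeletal muscle, was also lower on its probes, by less: 211 against 165 (-0.43) and 27.2 against 24.2 (-0.24).

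In the same comparison the thalamic marker list was lower and the cortical and striatal list higher. All 13 measured thalamic markers were below 0 (median -0.85, summed signal 183037 against 110004). Of 16 measured cortical and striatal markers 15 were above 0 (median 2.31, summed signal 7634 against 47314). Their part in the contractile differences was not tested. In bulk tissue, fewer cells of a type and less RNA per cell cannot be told apart.

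Because Casq2 stood apart, its promoter is shown: the 250 bases before its start in RefSeq (GRCr8, chr2:192214306-192214555, plus strand). Capitals mark the 1 match to the MEF2 box, the AT-rich site of a family of muscle and neuronal transcription factors, whose first base lies 149 bases before the start.
Casq2 promoter: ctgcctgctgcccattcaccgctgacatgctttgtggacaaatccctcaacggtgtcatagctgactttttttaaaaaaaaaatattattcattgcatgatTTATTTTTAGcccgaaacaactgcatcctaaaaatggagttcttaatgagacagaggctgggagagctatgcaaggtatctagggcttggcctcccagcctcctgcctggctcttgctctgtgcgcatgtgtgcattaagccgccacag

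On either strand of this window, a MEF2 box was found for 7 of the 63 contractile genes with a promoter in the RefSeq table (Casq2, Mybpc3, Myh1, Myh4, Myh9, Myl1 and Tnni3k), and in 2.96% of all 33469 promoters of the same length. A CArG box, the site of serum response factor, was found for 5 (Acta1, Myh15, Myh4, Myl3 and Myo1e), against 501 of the 33469. Of the 9 genes with a probe past 2-fold, Casq2 held a MEF2 box and none held a CArG box. The E-box CANNTG, the site of basic helix-loop-helix factors, was found for 40 of the 63 genes, against 65.5% of all promoters. The Casq2 window held 2, neither overlapping the MEF2 box. A match is a description of letters and not a shown site.

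Among the troponins, Tnnc2, the calcium sensor of fast skeletal muscle, had a signal of 1370 on the control and 3107 on the dexamethasone array, 2.15-fold higher (1.11). Probes of similar signal had a between-spot SD of 0.03 (216 probes). The difference ran from 1.05 to 1.12 over the 7 other settings, all past 2-fold. Tnnc1, the slow and cardiac form whose probe resembles it, had 490 against 433 (-0.25). The paired probes thus stood on opposite sides of 0.

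Tnnt2, cardiac troponin T, was higher on its probes by close amounts, with 312 against 541 (0.72) and 55.5 against 98.7 (0.76). With normexp the Tnnt2 probes were less close, at 0.58 and 0.36. Tnni3, cardiac troponin I, was lower. Its probe was spotted 10 times, with 195 ± 10.8 on the control and 124 ± 6.84 on the other array (SD, n = 10 spots). Each of the 10 pairs of spots was lower, from -0.87 to -0.61 with a mean of -0.73. The fast forms Tnni2 (98.8 against 85.8, -0.28) and Tnnt3 (43.3 against 52.0, 0.19) lay nearer equality. Tnni1, the slow inhibitory subunit, was not well above background on either array. Of the 7 measured troponin probes, 1 was past 2-fold, against 5.84% of all measured probes. The cardiac subunits T and I differed in opposite directions.

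The sarcomeric myosin heavy chains of skeletal muscle lie side by side on rat chromosome 10, and most of their probes were higher in the dexamethasone array. Myh2, a fast myosin of type IIA fibres, had a signal of 19.9 against 79.2, 3.77-fold higher (1.91). Its other probe was well above background on the dexamethasone array alone, at 2.58 against 15.5, which gives at least 2.51-fold. Such a bound replaces the undetected value by the lowest signal well above background on that array, or by the probe's own signal if greater. Of all probes 1.39% were detected on the dexamethasone array alone.

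Myh8, the perinatal heavy chain, was 2.17-fold higher at 310 against 706 (1.11). Repeated probes of similar signal had a between-spot SD of 0.05 (131 probes). Myh1, of type IIX fibres, had 97.3 against 160 (0.64). Myh3, the embryonic form, had 27.3 against 47.5 (0.72) and 52.9 against 77.9 (0.48). Myh13, of extraocular muscle, was near equality at 148 against 153 (-0.02) and 10.5 against 12.2 (0.14). Myh4, of type IIB fibres, was not well above background on either array. In this cluster Myh2 and Myh8 passed 2-fold, while Myh1 and Myh3 were higher by less.

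The size of these differences depended on background handling. With normexp Myh2 was at 0.77 and Myh8 at 0.95, both under 2-fold. The cardiac chains did not share the pattern. Myh6 had 715 against 705 (-0.10) and Myh7 355 against 356 (-0.07). Myh7b, a heavy chain found in brain as well as muscle, was lower at 255 against 189 (-0.51). Myh15 had 57.4 against 80.6 (0.42).

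The heavy chains of non-muscle cells and of smooth muscle lay close to equality. Myh10, the main non-muscle chain of neurons, had 6703 against 7150 (0.02), Myh14 had 144 against 172 (0.18) and Myh9 44.5 against 54.8 (0.22). Myh11, of smooth muscle, was slightly lower on its probes, at 436 against 390 (-0.24) on the brighter and -0.23 on the dimmer. Of the 16 measured heavy chain probes, 2 were at least 2-fold higher, against 2.67% of all measured probes, and 0 lower, against 3.18%. Their median was 0.16.

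**Figure D2:**
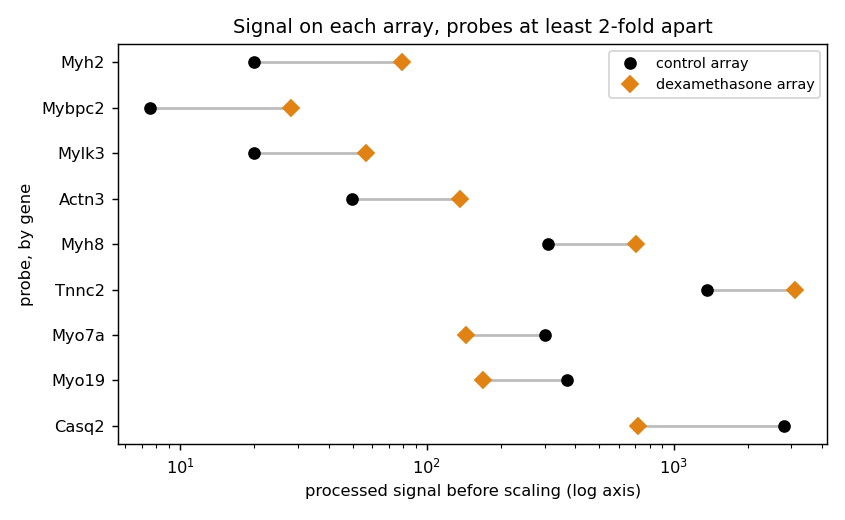
Processed signal before scaling (log axis) of the 9 contractile probes at least 2-fold apart, on the control array (black circles) and the dexamethasone array (orange diamonds), 1 array each. Casq2 moves from 2792 to 715, while Mybpc2, Myh2 and Mylk3 lie at 79.2 or less on both arrays. Levels are not comparable between probes.

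No myosin light chain passed 2-fold among 10 measured probes, against 5.84% of all measured probes. Their median difference was 0.07. Myl6, the essential light chain of non-muscle and smooth muscle myosin, had 124961 against 141412 (0.10). The probes named Myl6l, for the same current gene, were at 0.24 and 0.03. Myl12b, a regulatory light chain of non-muscle cells, was at 0.16 and 0.19, and Myl9, that of smooth muscle, at -0.04. Larger differences were seen on dim probes: Myl7, the atrial regulatory chain, had 28.1 against 18.0 (-0.72), and Myl3, a ventricular and slow chain, 11.8 against 19.4 (0.65). These were -0.27 and 0.02 with normexp. Mylpf, the regulatory chain of fast muscle, was at 0.01 (140 against 148), and Myl4, an atrial and embryonic chain, at -0.14 (94.2 against 90.1). Neither array had Myl1 or Myl2 well above background.

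Of the kinases that phosphorylate the regulatory light chain, Mylk, the widespread smooth muscle and non-muscle form, was lower on its probes, at 1721 against 1236 (-0.55) and 57.3 against 50.2 (-0.27). Mylk2 and Mylk3, the skeletal and cardiac forms, were higher but dim. Mylk3 had 19.9 against 56.9, 2.72-fold higher (1.44), and Mylk2 24.0 against 44.1 (0.80). The other Mylk2 probe was not well above background on either array. With normexp Mylk3 was at 0.40 and Mylk2 at 0.24. The ubiquitin ligase Mylip was at 0.45 (453 against 650, and 0.41 with normexp) and 0.90 (8.93 against 17.6, and 0.07 with normexp).

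Among the actin-linked members, Actn3, the alpha-actinin of fast fibre Z-discs, had 49.6 against 136, past 2-fold (1.38, and 0.73 with normexp). Actn2, the other sarcomeric form, had 25.8 against 49.1 (0.85, and 0.16 with normexp). The widely expressed Actn1 and Actn4 were at -0.07 (437 against 439) and 0.07 (3481 against 3859). Acta2, the vascular smooth muscle actin, had 301 against 309 (-0.04), and Actc1, cardiac actin, 1090 against 1203 (0.07). Acta1, skeletal actin, had 32.4 against 53.7 (0.65, and 0.27 with normexp). Acta2, Actc1, Actn1 and Actn4 lay within 0.1 of equality, while Acta1, Actn2 and Actn3 were higher at low signal.

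The myosin binding proteins C brace the thick filament. Mybpc2, the fast skeletal form, had the lowest signals of the probes past 2-fold, at 7.56 against 28.2, 3.54-fold higher (1.82). The files place its probe of 60 bases over a longer stretch, chr1:94982555-94982699 in rn4. Probes of similar signal had a between-spot SD of 0.29 (34 probes), and with normexp the difference was 0.41. Mybpc1, the slow form, had 1512 against 1223 (-0.38). Mybpc3, the cardiac form, was not well above background on either array, at 1.65 ± 0.257 and 1.69 ± 0.213 (SD over 9 spots).

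Tropomyosins, which lie along the actin filament in all cells, stayed within 1.5-fold. For Tpm1, the probe designed on 1 RefSeq transcript had 3016 against 4343 (0.45), and that on another had 3183 against 2948 (-0.19). For Tpm3, the probes were at 0.41 (4728 against 6639) and 0.05 (1554 against 1694). Probes of similar signal to these 4 had between-spot SDs of 0.03 to 0.04. Tpm2 was at 0.07 and 0.11, and Tpm4 at -0.25 (441 against 389). The Tpm1 probes read in opposite directions from like signals. Over all measured probes the quartiles of the difference were -0.21 and 0.21, and the lower Tpm1 value lay between them. Whether the Tpm1 transcripts differ was not tested.

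Of 22 measured probes for unconventional myosins, 2 were at least 2-fold lower, against 3.18% of all measured probes, and 0 at least 2-fold higher, against 2.67%. The median was -0.13. Myo19, a motor bound to mitochondria, was 2.32-fold lower at 371 against 169 (-1.21, spot SD at similar signal 0.06). Myo7a, a motor of sensory hair cells and retina, was 2.21-fold lower at 302 against 144 (-1.14, spot SD at similar signal 0.07). With normexp they were at -0.97 and -0.93. Both were single spots on each array, as were the other contractile probes past 2-fold, so each call rests on 1 spot per group. Myo15b, outside the naming rule and chosen after its value was seen, was at -1.10 (640 against 314). The probes of Myl12a, the light chain gene that the rule also missed, were at 0.08 and 0.15.

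The motors of neuronal transport differed little. Myo5a, which carries vesicles and endoplasmic reticulum in dendrites, had 6566 against 6993 (0.02). Myo6, a motor of endocytosis that walks to the minus end, was higher on its probes, at 0.23 (5594 against 6933) and 0.24. The latter was spotted 10 times, with 1606 ± 42.1 against 2005 ± 56.6 (SD over 10 spots), and all 10 spot pairs were higher by 0.20 to 0.32. Myo1d, also spotted 10 times, had 8004 ± 273 against 10008 ± 373 (SD over 10 spots) and a mean difference of 0.25, with all 10 pairs higher. These differences exceeded the spread between spots but stayed within 1.5-fold, and the spread between animals is unknown.

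Other unconventional myosins were spread on either side. Myo1e, an endocytic motor, had 352 against 595 (0.68), and Myo5b, of recycling endosomes, 544 against 808 (0.50). Myo18b, of striated muscle, was at -0.75 (105 against 65.9) on 1 probe and 0.13 (42.1 against 48.6) on the other. Myo1a, Myo3a, Myo3b and Myo15, motors of microvilli and hair cell stereocilia, had no array on which they were well above background. Of 16 genes with several measured probes, 13 had the same sign on all of them, and Myh13, Myo18b and Tpm1 did not.

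Of the members with unrelated functions beside Mylip, Tpmt was at -0.27 and -0.11. Tnni3k was dim, at 12.4 against 16.7 (0.36, and 0.03 with normexp). Tnn was at 0.45 on the probe with several spots (0.09 with normexp), with 20.7 ± 1.24 against 30.2 ± 1.78 (SD over 8 spots). Its other probe was not well above background.

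**Figure D3:**
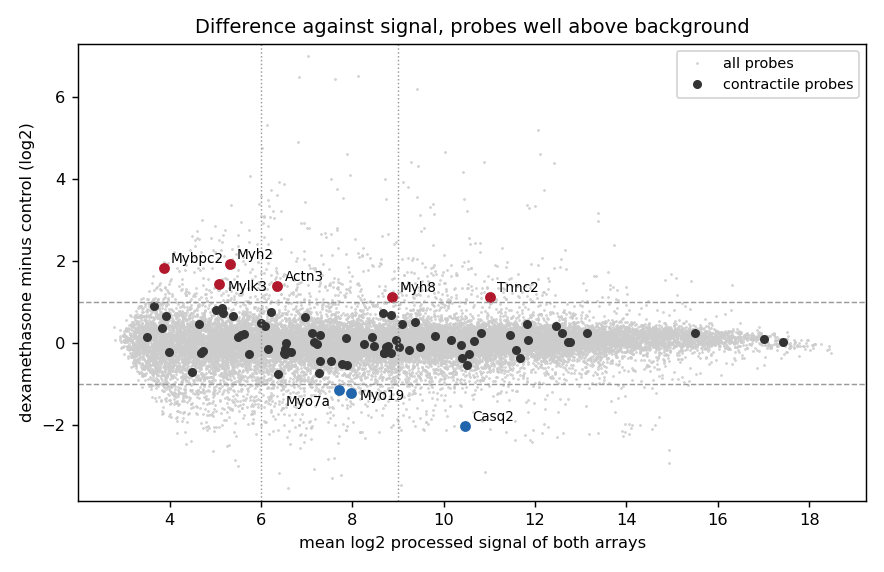
Difference (dexamethasone minus control, log2) against the mean log2 signal of both arrays for all 23321 probes well above background on both (grey) and the 84 contractile probes (dark), with dashed lines at 2-fold and dotted lines at log2 signals of 6 and 9. Named points are past 2-fold: Mybpc2, Myh2 and Mylk3 lie left of 6, and Tnnc2 and Casq2 right of 9.

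The differences depended on brightness, as the plot of difference against signal shows. Of the 20 measured contractile probes with a mean log2 signal below 6, 15 were above 0, with a median of 0.40, while all 5428 probes of that class had a median of -0.04. In this class 3 contractile probes were higher by 2-fold or more, against 3.45% of all, and 0 lower, against 6.02% (9.47% in either direction). At 1.5-fold, 9 of the 20 were higher (45.0%), against 9.43%, and 1 lower, against 14.6%. The higher ones were the probes for Myh2, Myh3, Mybpc2, Mylk2, Mylk3, Actn2, Acta1, Myl3 and Mylip, and Myl7 was the 1 lower. All of these but Mylip are genes of striated muscle, but so are most of the 20. Of the striated muscle genes within 1.5-fold in this class, Casq1 was at -0.24, Myh13 at 0.14, Myo18b at 0.13, Tnnt3 at 0.19 and Tnni3k at 0.36.

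In the middle class, from 6 to 9, 2 of 36 contractile probes passed 2-fold upward (Actn3 and Myh8), against 3.14% of all probes, and 2 downward (Myo19 and Myo7a), against 3.83% (6.97% in either direction). At 1.5-fold 6 were higher, against 6.9%, and 4 lower, against 10.1%. Among 28 contractile probes at 9 or more, 1 was higher (Tnnc2), against 2.0%, and 1 lower (Casq2), against 1.39% (3.38% in either direction). At 1.5-fold these were again 1 and 1, against 4.25% and 4.65%. The medians were -0.07 and 0.06, against -0.02 and 0.04 for all probes of these classes.

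With normexp the dim group shrank. At 1.5-fold, 1 of the 20 dim contractile probes was then higher (Myh2), against 1.12% of all dim probes, and their median was 0.05, against -0.07. Over all 84 probes 4 were then higher at 1.5-fold (Actn3, Myh2, Myh8 and Tnnc2), against 3.31%. Another 3 were lower (Casq2, Myo7a and Myo19), against 4.37%. Normexp with an offset draws dim differences toward 0 for every gene, so these values set a range and not a correction.

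**Figure D4:**
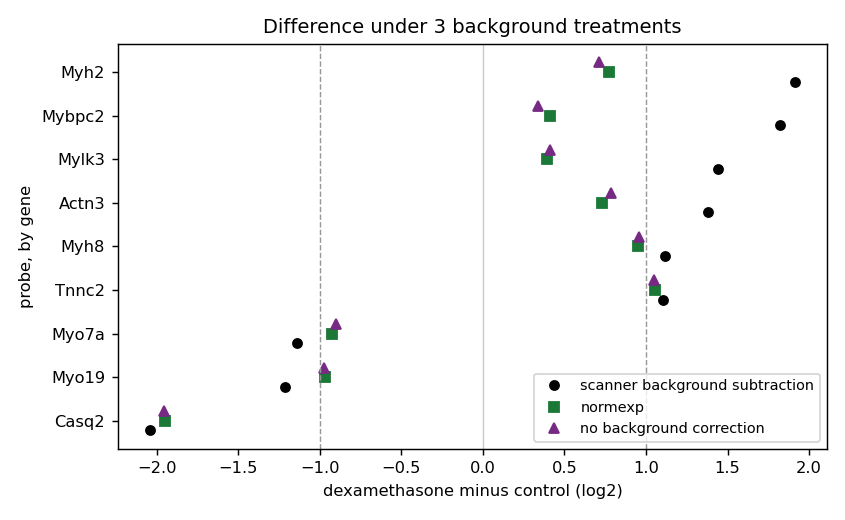
Difference (dexamethasone minus control, log2) of the 9 contractile probes past 2-fold with the scanner's background subtraction (circles), normexp (squares) and no background correction (triangles), 1 array per group. Casq2 and Tnnc2 stay outside the dashed 2-fold lines, and Mybpc2 moves from 1.82 to 0.41 and 0.34.

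The rest of the contractile pathway was read from gene lists, whose counts stand beside 2.67% of all measured probes higher and 3.18% lower. In the list of sarcoplasmic reticulum and excitation-contraction coupling genes, 2 of 19 measured genes passed 2-fold upward and 0 downward, with a median of 0.29. Both were dim and under 2-fold with normexp. Sln, encoding sarcolipin, a regulator of the calcium pump, had 13.9 against 83.6, 5.72-fold higher (2.52, and 0.95 with normexp). Trdn, encoding triadin, which ties calsequestrin to the ryanodine receptor, had 15.7 against 44.2 (1.42, and 0.40 with normexp). Sypl2, a membrane protein of muscle triads, had 126 against 232 (0.81). Atp2a1, the calcium pump of fast muscle, had 1195 against 738 (-0.77). Ryr2, a ryanodine receptor, had 362 against 647 (0.76) on its brightest probe, which the count used. Its other measured probe was at 2.22. Of the 19 genes 12 were above 0 and 7 below, so genes of this list lay on either side of 0 while Casq2 was lower.

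In the list of sarcomere scaffold and Z-disc genes, 1 of 19 measured genes passed 2-fold upward (2.67% of all measured probes) and 2 downward (3.18%), with a median of -0.03. Myom2, an M-band protein, had 9.29 against 26.6 (1.44, and 0.29 with normexp). Lmod2, a leiomodin that nucleates actin in heart, had 716 against 316 (-1.26), and Ankrd2, a stretch-responsive ankyrin repeat protein, 38.4 against 18.2 (-1.15, and -0.39 with normexp). Among skeletal and cardiac muscle genes, 1 of 17 was higher (2.67% of all measured probes) and 3 lower (3.18%), with a median of -0.07. Srpk3, a splicing kinase of muscle, had 5560 against 663 (-3.14), Ckm, muscle creatine kinase, 66.4 against 21.6 (-1.69, and -0.55 with normexp), and Nppa, atrial natriuretic peptide, 381 against 184 (-1.12). Pvalb, a calcium buffer of fast muscle and of interneurons, had 6179 against 13136 (1.01). Of the myogenic transcription factors in the list, Myf5 (120 against 120) and Myog (29.4 against 30.1) were measured on both arrays. Myod1 and Myf6 were not well above background on both, nor were Pax7, Smyd1 and Nppb.

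Smooth muscle regulators and non-muscle actin genes had none past 2-fold. Of 19 smooth muscle genes 14 were above 0 and 5 below (median 0.13). The largest difference was that of Rock1, which was lower at 159 against 104 (-0.68, and -0.49 with normexp). Next came Mkl1, a coactivator of serum response factor, at 0.64, and Srf itself at 0.53. Of 26 actin regulators 20 were above 0 (median 0.30). Those with the largest differences were subunits of the Arp2/3 complex, which branches actin filaments: Actr3 (7023 against 11568, 0.64), Arpc2 (0.63) and Arpc3 (0.54). Over all measured probes the median was 0.02.

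**Figure D5:**
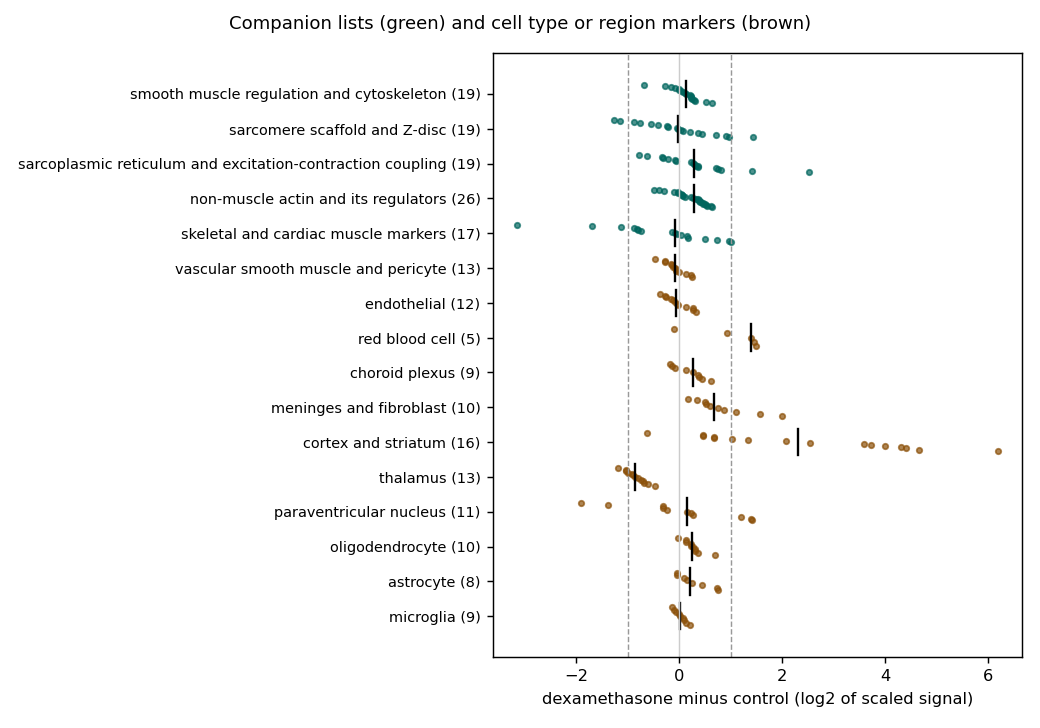
Difference (dexamethasone minus control, log2) of each measured gene in 5 contractile companion lists (green) and 11 marker lists (brown), with the median as a black bar, the number of measured genes in parentheses and 2-fold as dashed lines, 1 array per group. Vessel wall and endothelial medians lie at -0.07 and -0.06, cortex and striatum at 2.31 and thalamus at -0.85.

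The vessel wall markers, read beside the smooth muscle members, lay close to equality. Counts of markers past 2-fold stand beside 2.67% of all measured probes higher and 3.18% lower. Of 13 measured markers of vascular smooth muscle and pericytes 4 were above 0 and 0 past 2-fold (median -0.07, summed signal 12301 against 11872). Of 12 endothelial markers 4 were above 0 and 0 past 2-fold (median -0.06). Of the members that smooth muscle uses, Acta2, Myh11, Myl9 and Tpm2 lay between -0.24 and 0.11, while the Mylk probes were at -0.55 and -0.27 and the Tpm1 probes at 0.45 and -0.19. Red cell markers were higher (3 of 5 past 2-fold, median 1.40, summed signal 73942 against 211006). Meningeal and fibroblast markers were higher too (10 of 10 above 0, median 0.67, summed signal 20968 against 36858). Medians were 0.27 for 9 choroid plexus, 0.25 for 10 oligodendrocyte, 0.20 for 8 astrocyte and 0.01 for 9 microglial markers, with 0 past 2-fold. The part of these cell types in the differences of the dim contractile probes was not tested.

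Of 12 markers of the paraventricular nucleus 11 were measured, with 3 past 2-fold upward (2.67% of all measured probes), 2 downward (3.18%) and a median of 0.16. Avp, encoding vasopressin, was at -1.91, Oxt, encoding oxytocin, at -1.38, and Crh, corticotropin-releasing hormone, at 1.39. Of the transcription factors in this list, Arnt2 had 4103 against 5200, Pou3f2 290 against 361 and Sim1 14.1 against 12.0, and Otp was not well above background on both arrays. Of all probes 79.5% were well above background on the control array and 78.2% on the dexamethasone array. The arrays shared 1 slide, each at its own position, and the effects of position and group cannot be told apart.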

How the data were processed

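Total RNA was labelled with Cy3 and hybridised to 1-colour rat arrays, 1 per group, per the labels' protocols. The deposited scanner files hold spot intensity, background-subtracted by the scanner software. The software was Feature Extraction 10.7.1.1 per the file headers, and 9.5.1.1 per the submitters' processing notes. The deposited value table (intensity, normalization not stated) served as an alternative.

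Of 42877 non-control spots, those with an outlier mark were left out (267 control, 249 dexamethasone), and 0 were saturated. Each probe's log2 intensity was the mean of its unmarked spots, less the array's 75th percentile over non-control probes (1404 and 1480 as signal). A probe was well above background when most of its spots were. List genes took their brightest measured probe. Symbols were updated through RefSeq names (GRCr8). All 96 contractile probes matched: 76 by accession, 17 by symbol and 3 by older symbol. Alternatives used limma 3.58.1 in R 4.3.3 (normexp offset 50, quantile, cyclic loess); other steps used pandas 2.3.3. The steps were tested on simulated data. Folds were simulated only in probes brighter on the control array than those of Mybpc2, Myh2, Mylk3 and Actn3, with equal spot noise at every signal. Recovery of folds in dim probes was not tested.

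The members and lists were chosen with earlier results of these data known. Values are given for every member past 2-fold or with a bound of 2-fold or more, the 3 largest differences in each role, roles of up to 4 genes in full, and the 3 largest in each companion list. Others were named to complete a family, after their values were seen. With 1 array per group no p-value was computed, and the number of arrays limits the precision.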

Additional observations from a re-analysis of the deposited data

How the results depend on the processing

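The direction of all 9 contractile probes past 2-fold was the same under 7 other ways of scaling and correcting the arrays, and Casq2 and Tnnc2 were past 2-fold under each. The count of 6 higher and 3 lower became 1 and 1 with normexp and 1 and 1 with no background correction. It was 3 higher with a mean log2 signal of 6 or more, 16 and 6 at 1.5-fold, and 0 and 1 at 4-fold. Over all measured probes the 622 higher and 741 lower became 344 and 282 with normexp, 338 and 285 with no background correction, 1385 and 1608 with no filter on dim probes, 1452 and 1994 at 1.5-fold, and 147 and 95 at 4-fold. With a mean log2 signal of 6 or more 414 were lower. The median of the contractile probes ran from 0.02 to 0.07, and the sarcomere scaffold list, whose median was -0.03, from -0.10 to 0.05, on either side of 0. The 1.5-fold rule with normexp was chosen after the data were seen. Dim probes limit the rest. No paired analysis was possible because each group has 1 array. For the same reason no array could be left out.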
